A study of Mus musculus with 12 samples.

Results

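The S100 alarmin genes *S100a8* and *S100a9* were described together with 8 other neutrophil genes, *Cxcr2*, *Csf3r*, *Ngp*, *Camp*, *Lcn2*, *Retnlg*, *Slfn4* and *Il1b*. These are 10 of the 22794 genes in the deposited table. All 10 are genes that neutrophils express, and they were picked from these data for a negative interaction of nephrectomy and JV101, so that the measured values of that contrast chose them. The interaction is the log2 difference between JV101 and saline after nephrectomy minus the same difference after sham surgery. It is given below as a description with no test, and so are the comparisons of neighbouring groups from which it is built. After removal of low counts 14412 genes were tested, among them 9 of the 10. *Camp* was too low.

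RNA was sequenced from cardiomyocytes isolated from the hearts of wild-type C57BL6 mice, as polyA libraries. Mice had sham surgery or removal of most kidney tissue (5/6 nephrectomy, NX) and were killed 16 weeks later. Each surgery was combined with an injection of saline or of JV101 (the labels do not say what it contains), which made 4 groups of 3 libraries: sham saline, sham JV101, NX saline and NX JV101. Replicates carry only a number in the labels, with no word on whether they are separate animals, so a p-value here reflects the spread among the sequenced samples, which may be technical.

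Neutrophils are short-lived white blood cells that leave the bone marrow, circulate, and enter injured tissue along gradients of chemokines. They carry ready-made granules of antimicrobial proteins, and their cytosol is rich in S100A8 and S100A9, calcium-binding proteins that pair as calprotectin and act as alarmins when released, through receptors such as TLR4 and RAGE. In the heart neutrophils are known mainly as early arrivals after infarction, and few are found in healthy muscle.

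Depth set the limits for genes this low. A library held 26.4 to 33.8 M counts, of which 36.7% to 69% came from the 13 mitochondrially encoded genes, which left 8.38 to 20.7 M counts of nuclear genes. Libraries of the same group correlated at r 0.928 to 0.987 and libraries of other groups at 0.928 to 0.991. Cardiomyocyte markers dominated as labelled: the 10 ventricular markers summed to 31500 to 60300 CPM (counts per 1e6 counts of a library, scaled with edgeR's TMM factors). The 10 genes described here summed to 5.63 to 65.7 CPM, or 188 to 2403 counts in a library. In bulk RNA fewer cells of a type and less RNA per cell cannot be told apart. *Ly6g*, the gene of the surface protein by which mouse neutrophils are usually sorted, had 5 counts over all 12 libraries and was at 0 in 8 of them, and the chemokine receptor gene *Cxcr1* had 1 count in all.

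Sham JV101 replicate 1 stood apart for these genes. It had the highest CPM of 9 of the 10, the exception being *Ngp*, and its 2403 counts compare with 503 and 188 in the other sham JV101 libraries. That library also stood apart in other markers. Its ventricular cardiomyocyte markers summed to 31500 CPM, the lowest of the 12 libraries, against 53900 and 60300 in sham JV101 replicates 2 and 3. Its fibroblast markers summed to 2730 CPM against 1200 and 516, its endothelial markers to 2090 against 1190 and 380, and its monocyte and macrophage markers to 830 against 415 and 182. Their part in the members' values was not tested. The members' interaction, the medians of the tested comparisons and the interaction medians of the pathway and macrophage lists are given with that library and without it.

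The promoters of 3 pairs of genes are shown: the alarmins *S100a8* and *S100a9*, the granule genes *Ngp* and *Camp*, and *Csf3r* with *Il1b*. The members of each pair were related at r 0.74 to 0.87 across libraries, as described further on. Other pairs in that range, such as *S100a8* with *Slfn4* (0.81), are not shown. Each promoter is the 250 bases before the gene's start in RefSeq's GRCm38.p6 annotation, an older build than the GRCm39 of the counts, written 5′ to 3′ on the gene's strand. Capitals mark matches, on either strand, to GAGGAA, the core bound by ETS factors such as PU.1, or to TTNNGNAAT, the core bound by C/EBP factors, both families being known regulators of myeloid genes.
S100a8 (chr3:90668821-90669070, plus strand): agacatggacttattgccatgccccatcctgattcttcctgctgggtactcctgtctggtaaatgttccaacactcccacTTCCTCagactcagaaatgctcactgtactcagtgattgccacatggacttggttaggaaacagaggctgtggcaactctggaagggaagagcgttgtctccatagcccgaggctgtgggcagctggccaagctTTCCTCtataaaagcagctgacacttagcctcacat
S100a9 (chr3:90695722-90695971, minus strand): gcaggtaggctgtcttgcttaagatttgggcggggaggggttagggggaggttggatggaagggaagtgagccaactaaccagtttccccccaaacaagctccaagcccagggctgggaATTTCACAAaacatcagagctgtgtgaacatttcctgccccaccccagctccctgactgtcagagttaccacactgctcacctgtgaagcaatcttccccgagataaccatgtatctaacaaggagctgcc
Ngp (chr9:110419558-110419807, plus strand): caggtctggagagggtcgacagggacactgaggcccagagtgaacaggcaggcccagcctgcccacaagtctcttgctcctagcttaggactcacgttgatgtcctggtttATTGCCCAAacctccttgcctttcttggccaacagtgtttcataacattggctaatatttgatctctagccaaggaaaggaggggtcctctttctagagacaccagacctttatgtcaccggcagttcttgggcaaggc
Camp (chr9:109849457-109849706, minus strand): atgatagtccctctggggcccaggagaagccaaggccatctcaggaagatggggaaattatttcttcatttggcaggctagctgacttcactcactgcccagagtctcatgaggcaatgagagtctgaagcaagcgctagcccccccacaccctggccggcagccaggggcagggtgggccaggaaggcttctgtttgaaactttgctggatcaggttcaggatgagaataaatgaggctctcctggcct
Csf3r (chr4:126024409-126024658, plus strand): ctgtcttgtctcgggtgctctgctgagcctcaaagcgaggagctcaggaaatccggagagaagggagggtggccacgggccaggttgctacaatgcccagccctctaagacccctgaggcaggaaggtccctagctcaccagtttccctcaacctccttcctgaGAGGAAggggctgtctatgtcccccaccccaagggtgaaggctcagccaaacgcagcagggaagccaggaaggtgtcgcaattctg
Il1b (chr2:129371140-129371389, minus strand): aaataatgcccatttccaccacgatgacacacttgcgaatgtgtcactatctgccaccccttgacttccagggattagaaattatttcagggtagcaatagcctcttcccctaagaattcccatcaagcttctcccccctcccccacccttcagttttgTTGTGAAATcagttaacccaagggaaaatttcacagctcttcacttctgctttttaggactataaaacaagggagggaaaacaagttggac

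*S100a8* and *S100a9* lie on chromosome 3 with 0 annotated genes between them, and *Ngp* and *Camp* on chromosome 9 with 18 between them. The S100a8 window held GAGGAA at 2 places on the reverse strand, starting 170 and 36 bases before the gene's start, and the Csf3r window 1, at 86 bases. TTNNGNAAT began 131 bases before the start of *S100a9*, 139 before *Ngp* and 91 before *Il1b*, while the Camp window held neither motif. No window of the 10 held both motifs, so no matches of different motifs overlap. Among all 10 genes TTNNGNAAT was present in 3 and GAGGAA in 4, the others being *Cxcr2* and *Lcn2*. The windows of *Retnlg* and *Slfn4*, like that of *Camp*, held neither. Of 32851 RefSeq promoters of the same length, 10.2% held TTNNGNAAT, 23.3% GAGGAA and 2.37% both. These are matches of letters and no measurement of binding.

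In sham JV101 and in NX saline the alarmin pair had the highest levels per length of transcript among the 10 genes. *S100a8* had 30, 7 and 40 counts in sham saline replicates 1, 2 and 3, then 360, 68 and 27 in sham JV101, 214, 262 and 41 in NX saline, with 21, 57 and 1 in NX JV101. *S100a9* had 10, 17 and 66 counts in sham saline, 692, 116 and 32 in sham JV101, 331, 390 and 42 in NX saline, with 160, 160 and 62 in NX JV101. High values thus sat in replicate 1 of sham JV101 and replicates 1 and 2 of NX saline, while replicate 3 of both these groups held 27 to 42 counts. Scaled for depth, these were 2.22 (*S100a8*) and 2.27 CPM (*S100a9*) in NX saline replicate 3, but 0.809 and 0.958 CPM in sham JV101 replicate 3.

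Mean *S100a8* was 0.803 ± 0.418 CPM after sham surgery with saline and 4.58 ± 4.7 with JV101, and after nephrectomy 5.51 ± 2.87 with saline and 0.694 ± 0.659 with JV101 (SD, n = 3, as for all means here). Per length this was 2.13, 13.1, 14.2 and 2.04 FPKM (fragments per kilobase per 1e6 reads) in the same order. *S100a9* averaged 1.09 ± 0.899, 8.38 ± 9.39, 7.99 ± 4.96 and 3.59 ± 1.96 CPM, and 1.99, 18.1, 15.5 and 7.58 FPKM. The SD exceeded the mean in sham JV101 for both alarmins. The mean of *S100a9* in NX JV101 was above that in sham saline, but the ranges overlapped (0.256 to 2.04 CPM in sham saline and 1.55 to 5.45 in NX JV101).

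**Figure D1:**
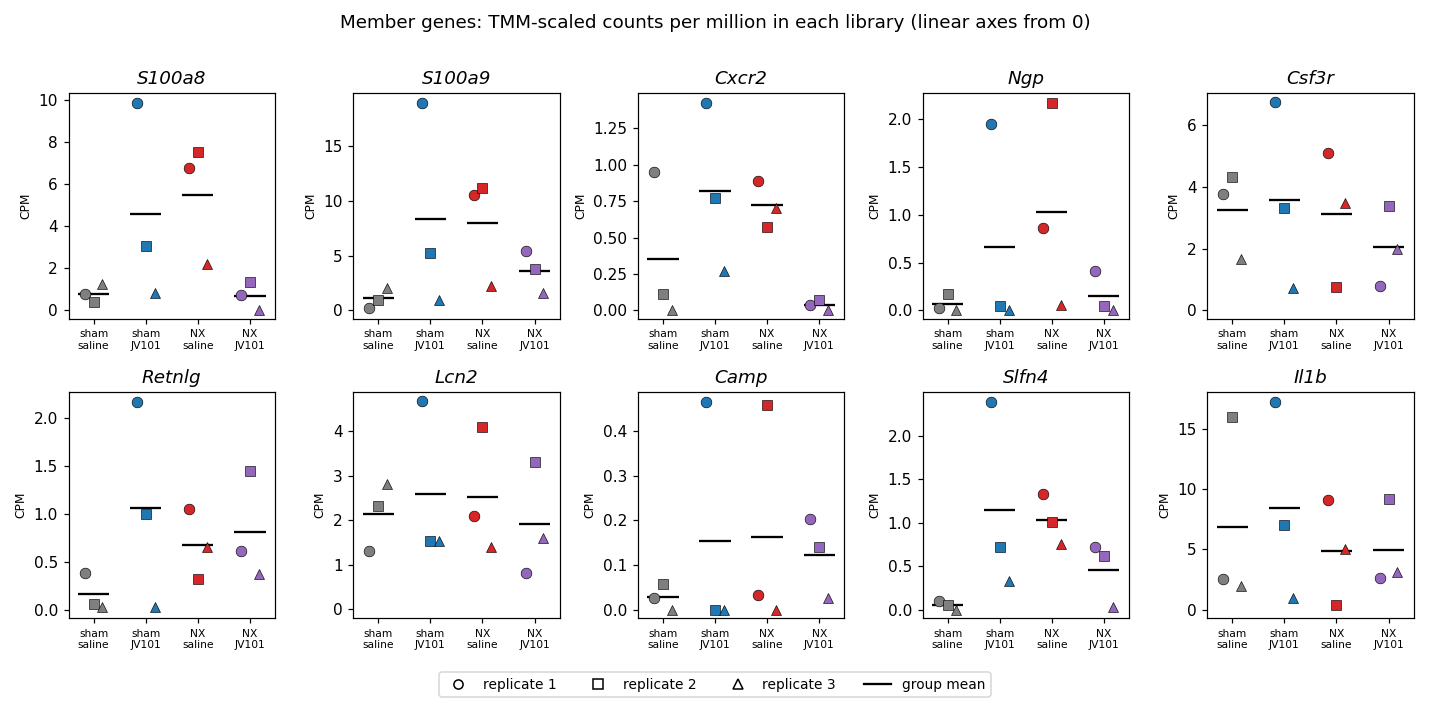
TMM-scaled CPM of each of the 10 genes (linear y axes from 0) in the 4 groups (x axis). Points are libraries, with the shape giving the replicate number, and lines are group means of 3 libraries. Sham JV101 replicate 1 (blue circle) is the highest library for 9 genes, and for *S100a8* the 3 NX saline libraries (2.22 to 7.53 CPM) lie above the 3 sham saline libraries (0.404 to 1.24).

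Granule genes came next. *Ngp*, which encodes neutrophilic granule protein of the specific granules, had 1, 3 and 0 counts in sham saline, 71, 1 and 0 in sham JV101, 27, 75 and 1 in NX saline, with 12, 2 and 0 in NX JV101. *Camp*, the gene of the antimicrobial cathelicidin, had 1, 1 and 0, then 17, 0 and 0, then 1, 16 and 0, and finally 6, 6 and 1 counts in the same order. Both were high in the same pair of libraries, sham JV101 replicate 1 and NX saline replicate 2, while elsewhere *Ngp* reached at most 27 counts and *Camp* at most 6. A count of 0 allows up to 3 counts, or 0.0748 to 0.162 CPM in the libraries at 0 for these genes, and covers counting error only.

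*Lcn2*, encoding lipocalin 2, a siderophore-binding granule protein that epithelial cells also secrete, behaved otherwise. It had 51, 40 and 91 counts in sham saline, 171, 34 and 51 in sham JV101, 66, 142 and 26 in NX saline, with 24, 140 and 64 in NX JV101. Group means lay between 1.9 ± 1.27 CPM in NX JV101 and 2.58 ± 1.82 in sham JV101, and all 4 groups overlapped.

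The receptors did not share a pattern. *Cxcr2*, the receptor through which neutrophils follow CXC chemokines, had 37, 2 and 0 counts in sham saline, 52, 17 and 9 in sham JV101, 28, 20 and 13 in NX saline, with 1, 3 and 0 in NX JV101. Its 3 NX JV101 libraries were below every library with JV101 or nephrectomy alone, and sham saline replicate 1 was its second highest library of all. *Csf3r*, the receptor for granulocyte colony-stimulating factor, had 147, 75 and 54 counts in sham saline, 246, 73 and 24 in sham JV101, 161, 26 and 64 in NX saline, with 23, 143 and 80 in NX JV101. Its group means ran from 2.05 ± 1.29 CPM in NX JV101 to 3.58 ± 3.01 in sham JV101, closer together than the libraries within a group.

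The remaining members are a secreted protein, an interferon-inducible gene and a cytokine. *Retnlg*, a resistin-like gene of mouse neutrophils, had 15, 1 and 1 counts in sham saline, 79, 22 and 1 in sham JV101, 33, 11 and 12 in NX saline, with 18, 61 and 15 in NX JV101. *Slfn4*, a Schlafen gene induced in myeloid cells, had 4, 1 and 0 counts, then 87, 16 and 11, then 42, 35 and 14, and finally 21, 26 and 1. Its mean in sham saline was 0.0534 ± 0.0513 CPM, against 1.14 ± 1.09 in sham JV101, 1.03 ± 0.287 in NX saline, with 0.451 ± 0.372 in NX JV101. *Il1b*, which encodes interleukin-1β and is expressed by monocytes as well, had 100, 278 and 63 counts in sham saline, 628, 156 and 33 in sham JV101, 287, 12 and 93 in NX saline, with 77, 389 and 126 in NX JV101. Its highest libraries came from 4 different groups, and NX saline replicate 2, high for both alarmins, was its lowest.

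In order of group means, sham JV101 was highest for 7 of the 10 genes and NX saline for 3 (*S100a8*, *Ngp* and *Camp*). The lowest mean was in sham saline for 5, in NX JV101 for 4 (*S100a8*, *Cxcr2*, *Csf3r* and *Lcn2*) and in NX saline for *Il1b*. Few of these steps cleared the spread. The 3 NX saline libraries lay above the 3 sham saline libraries for *S100a8*, *S100a9* and *Slfn4*, where 4.9% of all tested genes did so, and the 3 sham JV101 libraries lay above sham saline for *Slfn4*, as for 1.76% of all genes. NX saline lay above NX JV101 for *S100a8*, *Cxcr2* and *Slfn4* (3.69% of all genes), and sham JV101 above NX JV101 for *Cxcr2* (2.42%). The choice of the genes used these contrasts, so these counts support nothing. For *Slfn4* the gap between NX saline and NX JV101 was narrow, from 0.758 to 0.715 CPM.

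As a description, log2 fold changes of NX saline over sham saline were 2.74 for *S100a8*, 2.88 for *S100a9*, 4.28 for *Ngp* and 4.14 for *Slfn4*, but −0.06 for *Csf3r* and −0.48 for *Il1b*. Those of sham JV101 over sham saline were 2.47, 2.95, 3.66 and 4.29 for the first 4, and 0.15 and 0.33 for *Csf3r* and *Il1b*. These comparisons share the sham saline libraries, and the next shares NX saline with the first. Those of NX JV101 over NX saline were −2.99 for *S100a8*, −1.17 for *S100a9*, −4.2 for *Cxcr2*, −2.87 for *Ngp* and −1.21 for *Slfn4*, against 0.28 for *Retnlg* and 0.05 for *Il1b*. Fold changes of genes with 0 to 3 counts in several libraries depend on the prior count of the fit.

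The interaction, by which the genes were chosen, was −6.53 for *Ngp*, −5.5 for *Slfn4*, −5.46 for *S100a8*, −5.32 for *Cxcr2*, −4.12 for *S100a9* and −2.32 for *Retnlg*. It was −0.73 for *Csf3r*, −0.69 for *Lcn2* and −0.27 for *Il1b*. The last 3 lie nearest to the median of all tested genes, −0.03, and the 9 members had a median of −4.12. Sham JV101 replicate 1 carried part of this, to an extent that differed between genes. Without that library the median was −1.6, *S100a8* was at −4.19, *S100a9* at −2.65, *Cxcr2* at −4.63, *Slfn4* at −4.35, *Ngp* at −1.6 and *Retnlg* at −1.2, while *Csf3r* (0.13), *Lcn2* (0.07) and *Il1b* (0.82) turned positive. Leaving out this library gave the highest value for all 9 genes among the 12 fits that each left out 1 library. For 6 genes the interaction was negative in all 12.

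**Figure D2:**
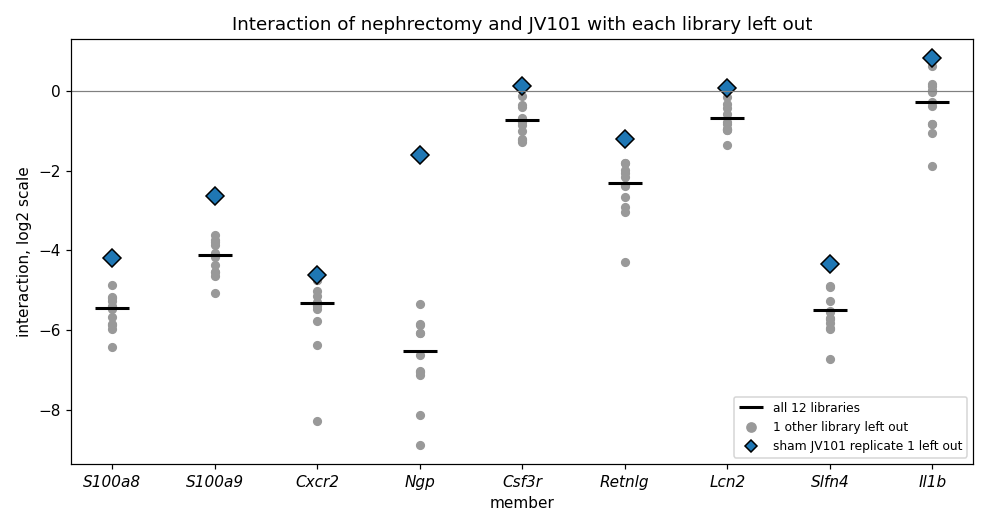
Interaction of nephrectomy and JV101 (y axis, log2 scale, edgeR) for the 9 tested genes (x axis). Black bars are the fit of all 12 libraries, grey points the fits without 1 library, and blue diamonds the fit without sham JV101 replicate 1, which is the highest value for every gene and lies above 0 for *Csf3r*, *Lcn2* and *Il1b*.

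Across all 14412 genes, edgeR's quasi-likelihood test called 0 genes (0%) for the interaction at an adjusted p of 0.05, with 256 (1.78%) at an unadjusted p under 0.05, and DESeq2 also called 0. In simulated counts of this design (14197 genes) the test recovered 5% of 2-fold and 57% of 4-fold interactions. The changed genes were drawn at random from all tested genes, most of them unlike the members in level.

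Comparisons that the choice of genes did not use asked whether these genes moved with nephrectomy averaged over injections, with JV101 averaged over surgeries, or between the doubly treated and the untreated mice. None of the 9 genes passed in any of them. For nephrectomy averaged over both injections, 0 of 14412 genes (0%) passed edgeR's quasi-likelihood test with Benjamini-Hochberg adjustment, 629 had an unadjusted p under 0.05, and DESeq2 called 1, which was not a member. *S100a8* was at a log2 fold change of 0.01 (SE 0.72, adjusted p = 0.998), *S100a9* at 0.82 (SE 0.68, adjusted p = 0.861), *Slfn4* at 1.39 (SE 0.75, adjusted p = 0.86) and *Cxcr2* at −1.73 (SE 0.84, adjusted p = 0.86). The other 5 lay between −0.62 (*Il1b*) and 1.02 (*Ngp*). The median of the 9 was 0.01, as for all genes, with 5 positive and 4 negative, and 0.65 without sham JV101 replicate 1. For *S100a8* an interval of 2 SE ran from −1.42 to 1.45, so that the averaged change was not known to within 2-fold.

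For JV101 averaged over both surgeries, 0 of 14412 genes (0%) passed in edgeR, 329 had an unadjusted p under 0.05 and DESeq2 called 7, none of them a member. The largest values among the 9 were 1.54 for *Slfn4* (SE 0.75), 1.44 for *Retnlg* (SE 0.77) and −1.54 for *Cxcr2* (SE 0.83), and every adjusted p was 1 (edgeR). The other 6 lay between −0.26 (*S100a8*) and 0.89 (*S100a9*). The median was 0.19 against 0.02 for all genes, and −0.44 without sham JV101 replicate 1.

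NX JV101 against sham saline gave 0 of 14412 genes (0%) in edgeR, 895 at an unadjusted p under 0.05 and 8 in DESeq2, again no member. *Slfn4* was at 2.93 (SE 1.2), *Retnlg* at 2.2 (SE 1.15), *S100a9* at 1.71 (SE 1.01) and *Cxcr2* at −3.27 (SE 1.33), each with an adjusted p of 0.78 in edgeR. The other 5 lay between −0.65 (*Csf3r*) and 1.42 (*Ngp*). The median of the 9 was −0.16 against 0.03 for all genes, −0.15 without sham JV101 replicate 1 and 1.15 without sham saline replicate 2. *Cxcr2* rested on 37 counts in sham saline replicate 1: without that library its value was −0.3 here, −0.25 for nephrectomy and −0.06 for JV101. In simulated counts (14249 genes) the nephrectomy test recovered 63.6% of 2-fold and 85.9% of 4-fold changes. The changed genes were drawn at random from all tested genes, so these rates do not describe genes as low as the members. For the members the SE of the nephrectomy comparison ran from 0.43 (*Lcn2*) to 1.31 (*Ngp*).

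**Figure D3:**
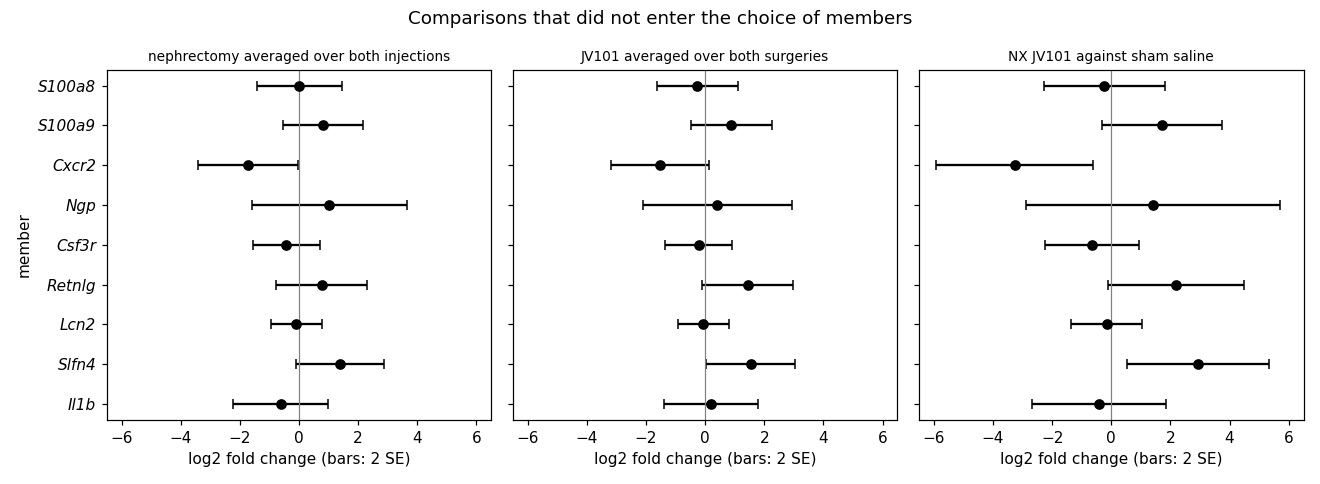
Log2 fold changes (x axes, edgeR) of the 9 tested genes (y axis) in the 3 comparisons that did not enter their choice. Points are estimates and bars reach 2 SE to each side. No gene passed at an adjusted p of 0.05, and the intervals of *Ngp* and *Cxcr2* are the widest in NX JV101 against sham saline.

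Correlations of log2(CPM + 0.1) between the 10 genes over the 12 libraries are given as a description. The genes were picked for 1 shared group contrast, which by itself relates them, and the values share library depth and single high libraries. *S100a8*, *S100a9* and *Slfn4* were related at r 0.74 to 0.81, *Ngp* and *Camp* at 0.83, and *S100a9* and *Ngp* at 0.78. *Retnlg* with *Slfn4* (0.74) and *S100a8* with *Cxcr2* (0.73) were as closely related, so the genes did not fall into separate sets, while *S100a9* and *Cxcr2* were at 0.29. *Csf3r* and *Il1b* were related at 0.87 but hardly to the alarmins, with r = 0.24 for *Csf3r* and 0.08 for *Il1b* against *S100a8*. The lowest value was −0.09, between *Csf3r* and *Camp*.

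**Figure D4:**
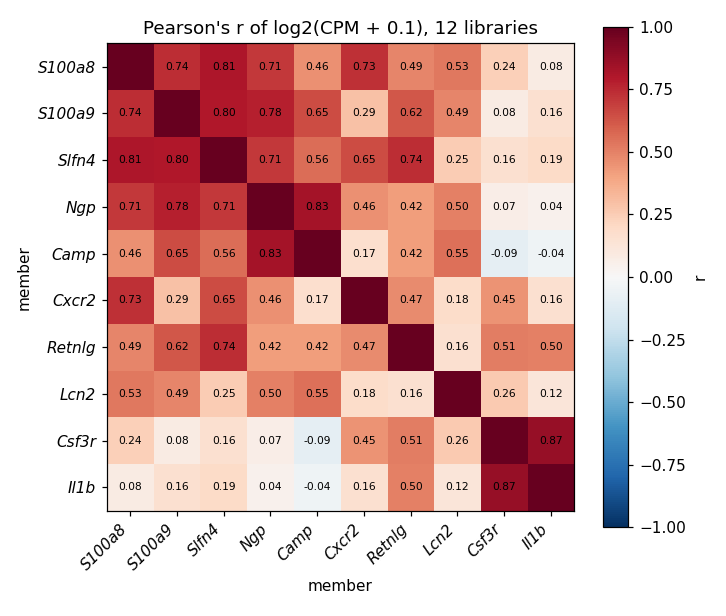
Pearson's r of log2(CPM + 0.1) over 12 libraries for each pair of the 10 genes (both axes), coloured from −1 to 1. *S100a8*, *S100a9*, *Slfn4*, *Ngp* and *Camp* at the upper left are related at r 0.46 to 0.83, *S100a8* and *Cxcr2* at 0.73, and *Csf3r* and *Il1b* at 0.87.

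A mean of centred log2 CPM over the 9 tested genes was highest in sham JV101 replicate 1 (2.23) and NX saline replicate 1 (1.41), and lowest in NX JV101 replicate 3 (−1.4), sham saline replicate 3 (−1.24) and sham JV101 replicate 3 (−1.19). Its SD within groups was 1.02. Over 12 libraries genes most like this mean included *Slc16a13* (r = 0.88), *Hilpda* (0.865), a lipid droplet protein induced by hypoxia, *Apobr* (0.85) and *Mmp8* (0.837), the neutrophil collagenase. Next came *Hnrnpc*, *Ddx39a*, *Zfp131*, *Supt16* and *Cd248* (0.834 to 0.817). Each of these had its own highest value in sham JV101 replicate 1.

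The interaction was tested for neutrophil genes outside the 10. These lists leave out the genes picked for a negative value, so setting them against the members shows nothing. Of 16 genes of granules and the oxidase, 12 were tested and 0 passed, with 7 negative, 5 positive and a median of −0.21 (all genes −0.03). *Cybb*, the catalytic subunit of the phagocyte oxidase, was at 0.05 (SE 0.68) and its cytosolic partner *Ncf1* at −0.21 (SE 0.88). *Mmp9*, the gelatinase of tertiary granules, was at −1.87 (SE 1.6) and *Mmp8* at −5.95, and each had an adjusted p of 1 (edgeR). *Mmp8* had 35, 8 and 0 counts in sham JV101 and 22, 18 and 0 in NX saline, against 1, 2 and 1 in sham saline and 3, 2 and 1 in NX JV101, so that it was high in libraries where *S100a8* was high. Its value ranged from −6.68 to −4.54 when 1 library was left out. *Mpo* and *Elane* of the same list, described further on, averaged 0 CPM in sham JV101 against 0.647 and 0.276 in sham saline. After nephrectomy they averaged 1.19 and 0.495 CPM with saline and 0.432 and 0.189 with JV101.

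Of 18 receptor and surface genes 14 were tested and 0 passed, 10 of them negative with a median of −0.49. The integrin pair *Itgam* and *Itgb2*, which macrophages also express, stood at −0.56 (SE 0.73) and −0.54 (SE 0.78). *Cd177*, a neutrophil surface protein, had 21, 0 and 1 counts in sham JV101 and 10, 22 and 11 in NX saline, against 7, 1 and 0 in sham saline and 1, 4 and 1 in NX JV101. Leaving out sham JV101 replicate 1 brought the median of the granule list to 0.49 and that of the receptor list to 0.6.

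Genes of the primary (azurophil) granules, which are transcribed at the promyelocyte stage, differed from the members in sham JV101. *Mpo*, myeloperoxidase, had 24, 23 and 0 counts in sham saline, 0, 0 and 0 in sham JV101, 62, 56 and 0 in NX saline, with 18, 29 and 0 in NX JV101. *Elane*, neutrophil elastase, had 12, 9 and 0, then 0, 0 and 0, then 16, 34 and 0, and finally 7, 14 and 0. In raw counts both were highest in NX saline replicates 1 and 2, libraries that were also high for the alarmins. Scaled for depth, *Elane* was second highest in sham saline replicate 2 (0.52 CPM), where *S100a8* was at 0.404 CPM. *Prtn3*, proteinase 3, had 1, 3 and 0, then 1, 1 and 0, then 3, 6 and 0, and finally 1, 3 and 0 counts. Together with *Ctsg*, cathepsin G, *Mpo* and *Elane* were at 0 in 6 libraries, namely the 3 sham JV101 libraries and replicate 3 of the other groups, and present in the other 6. Sham JV101 replicate 1, the highest library for the alarmins, was thus among those at 0, with 1 count of *Prtn3*. What separates the 6 libraries was not tested.

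*Ltf*, lactoferrin, a secondary granule gene that airway and gland epithelium also expresses, was high where airway genes were high. Its 5 highest libraries, with 813, 427, 333, 329 and 246 counts, were those in which *Bpifa1*, a secreted protein of airway epithelium, had 7117, 1800, 1417, 5935 and 2400 counts. Elsewhere *Ltf* had 0 to 80 counts and *Bpifa1* 1 to 81. The summed airway markers ranged from 0.0748 to 369 CPM, and their part in the members' values was not tested. *Lcn2*, the member that epithelium also makes, had 171 counts in sham JV101 replicate 1, where *Bpifa1* had 24. It had 142 counts in NX saline replicate 2 and 91 in sham saline replicate 3, where airway markers summed to 369 and 275 CPM. In NX JV101 it had 140 counts in replicate 2 and 24 in replicate 1, with airway sums of 6.5 and 137 CPM.

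**Figure D5:**
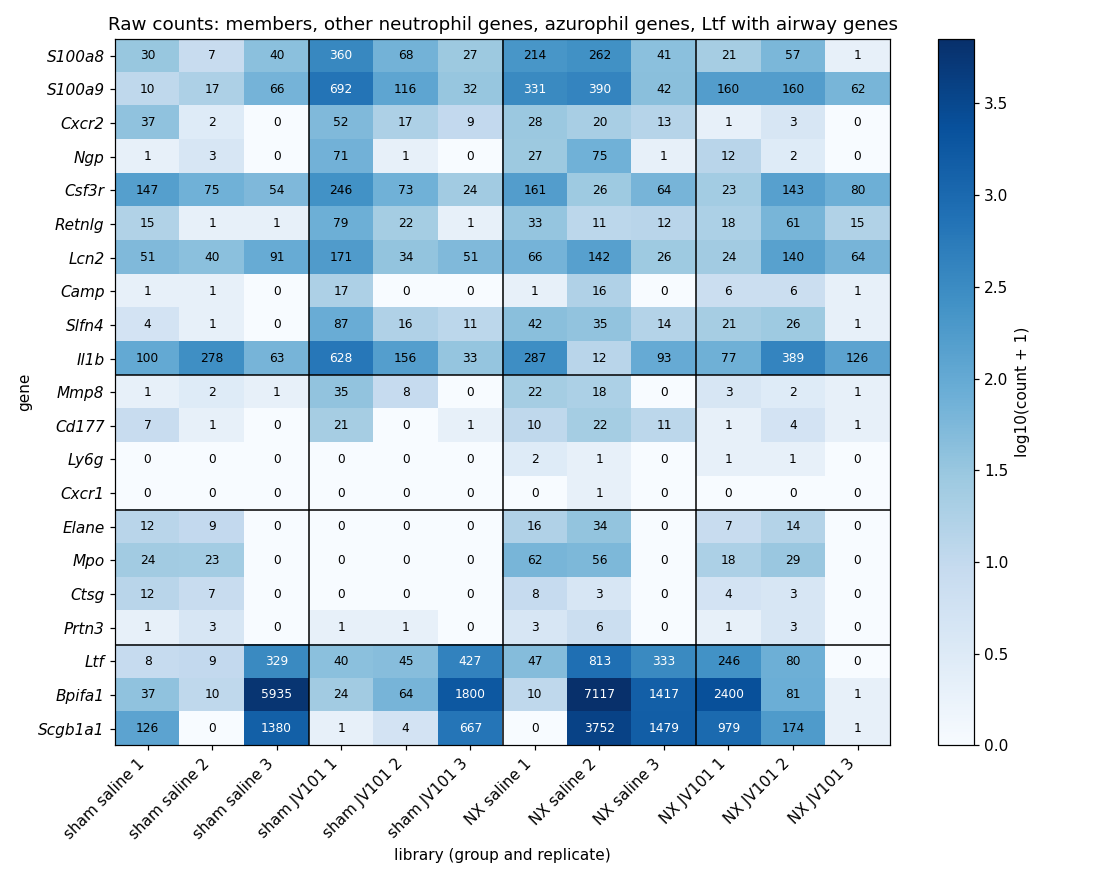
Raw counts of the 10 members, 4 other neutrophil genes, 4 azurophil granule genes, and *Ltf* with 2 airway genes (rows), in each library (columns). Colour is log10(count + 1) and numbers are counts. *Elane*, *Mpo* and *Ctsg* are at 0 in 6 libraries, and the high *Ltf* libraries (246 to 813 counts) are the high *Bpifa1* libraries.

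The interaction was also tested for genes of the alarmin pathway outside the members. The members were chosen by this contrast, so setting their median against those of these lists shows nothing. Of 17 genes of alarmin receptors and the interleukin-1 pathway 15 were tested, 10 were negative, and the median interaction was −0.19. *Tlr4*, a receptor for S100A8 and S100A9, was at −0.07, and *Il1r1*, the receptor for interleukin-1, at 0.13. Of the other S100 genes 8 of 12 in the table were tested, 7 negative with a median of −0.18, and *S100a1*, the cardiac member of the family, had 4264 to 13253 counts and an interaction of −0.07 (SE 0.24). Among the other Schlafen genes 1 of 6 was negative and the median was 0.11, with *Slfn5* at 0.13 (SE 0.73) and *Slfn2* at 0.1 (SE 0.8). Chemokines and growth factors that draw or form neutrophils had 5 of 11 negative and a median of 0.06, with *Cxcl1* at 0.06 (SE 0.97) and *Cxcl2* at −0.37 (SE 1.25), and myeloid transcription factors 1 of 6 negative and a median of 0.38, with *Cebpb* at 0.43. Without sham JV101 replicate 1 these medians were 0.3 for the alarmin and interleukin-1 list, 0.43 for the other S100 genes, 0.76 for the other Schlafen genes, 1.18 for the attractants and 1.08 for the transcription factors, against 0.02 for all genes. None of these genes passed in edgeR, whose smallest adjusted p for the interaction was 1.

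Markers of other cells moved with the members in part. The 15 monocyte and macrophage markers summed to 238 to 619 CPM in sham saline, 182 to 830 in sham JV101, 429 to 613 in NX saline, with 336 to 905 in NX JV101. Their median interaction was 0, with 8 of 15 negative, but 0.68 without sham JV101 replicate 1. Leaving out NX JV101 replicate 2 instead brought it to −0.59. *Lyz2* and *Csf1r* had 1873 to 11910 and 603 to 3674 counts, neither near 0. Over the 12 libraries the members correlated with this sum at r −0.06 (*Cxcr2*) to 0.72 (*Lcn2*).

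The groups separated for other lists. B cell markers, 6 tested of 8, summed to 0.748 to 1.94 CPM in NX JV101 and 3.14 to 16.5 in NX saline, with all 6 lower in NX JV101 (median log2 fold change −2.59). Mesothelial markers summed to 35.2 to 42.8 CPM in NX JV101 and 59 to 120 in NX saline (9 of 9 lower, median −1.18), and atrial cardiomyocyte markers to 995 to 1630 and 302 to 567 CPM (8 of 8 higher, median 1.63). These lists thus differed between the same groups as *S100a8*, *Cxcr2* and *Slfn4*, and their part in the members' values was not tested. No gene of these lists passed in edgeR.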

How the data were processed

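RNA of isolated cardiomyocytes was sequenced in 12 libraries, 3 in each of 4 groups. The authors deposited gene counts and FPKM. Per the submitters' processing notes, fastp, HISAT2, HTSeq and the build GRCm39 were used. The sources used here do not state the versions, the gene annotation or whether counting used strand. The deposited counts (22794 genes) gave every test, and the deposited FPKM served for levels per length and as an alternative. Counts were filtered by edgeR's filterByExpr (minimum count 10, minimum total 15), scaled with TMM, and fitted with edgeR's quasi-likelihood model with the 4 groups as terms. Tests were 2-sided, with p-values adjusted by Benjamini-Hochberg over 14412 genes and a threshold of 0.05. SE were derived from the fold change and its F statistic. The tests were checked on simulated counts. Software was edgeR 4.0.16, DESeq2 1.42.0 and limma 3.58.1 in R 4.3.3.

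The members and gene lists were chosen with earlier results of these data known. Genes named are the 10 members, up to 4 genes of a list by highest mean CPM, the 10 most like the members' mean, and *Ly6g*, *Mmp8*, *Elane*, *Mpo* and *Cxcr1*. *Cd177*, *Chil3*, *Fpr2*, *Ctsg* and *Prtn3* were added after their values were seen. Some genes the rule names are not reported here. Likeness to the members' mean is Pearson's r of log2 CPM (prior count 2). RefSeq's GRCm38.p6 tables held 22096 (96.9%) of the symbols and gave the promoters. Alternatives were DESeq2, RLE factors, no filter, no mitochondrial genes, an additive fit, only the groups compared, a replicate block, limma on log2(FPKM + 1) and log2(FPKM + 0.1), and leaving out each library.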

Additional observations from a re-analysis of the deposited data

Results flagged for a closer look

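For *S100a8* and *Slfn4* each sham JV101 library was above the sham saline mean and each NX JV101 library below the NX saline mean. Libraries were set against a group mean and not a partner, so none has a JV101 effect of its own. For *S100a8* the lowest sham JV101 library, at 0.809 CPM, was barely above the sham saline mean of 0.803. It was below sham saline replicate 3 (1.24 CPM). Their interactions were −5.46 and −5.5 on the log2 scale. Both genes were chosen for this contrast, so it was not tested for them. Without sham JV101 replicate 1 the values were −4.19 and −4.35.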

How the results depend on the processing

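Scaling by FPKM moved the median of all genes to at most 0.29 in the tested comparisons (0.03 with TMM). None of the 564 values of members under the alternatives passed the threshold (smallest adjusted p 0.18), and 49 had the other sign. DESeq2 called 1 gene for nephrectomy, 7 for JV101 and 8 for NX JV101 against sham saline, where edgeR called 0. The median interaction of the 9 members was −0.50 with limma on log2(FPKM + 1), −2.29 on log2(FPKM + 0.1), −4.74 to −1.6 without 1 library, and −1.72 without both sham JV101 replicate 1 and NX saline replicate 1, a fit chosen after seeing the data. The median for NX JV101 against sham saline went from −0.81 to 1.15 without 1 library. Without 1 library the granule list's median interaction was −1.17 to 0.49, the receptor list's −1.2 to 0.6, the other S100 list's −0.6 to 0.43, the macrophage list's −0.59 to 0.68, the attractants' −0.38 to 1.18, the alarmin and interleukin-1 list's −0.42 to 0.3, the other Schlafen genes' −0.29 to 0.76 and the transcription factors' −0.06 to 1.08. The cause of these shifts was not tested.

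Across genes the replicate numbers did not pair the libraries. Deviations of same-numbered libraries correlated at −0.64 to 0.33, and 2 of 12 correlated best with their own number. The members did follow the number in part, since every group had their lowest summed CPM in replicate 3. These sums were 9.75 CPM for sham saline, 5.63 for sham JV101, 16.6 for NX saline and 8.73 for NX JV101. For sham saline the margin was narrow, with 10.1 CPM in replicate 1. What sets replicate 3 apart was not tested. With the replicate block 0 genes were called in each comparison, *S100a8* was at −0.21 for nephrectomy and *Ngp* at −0.20 for JV101.

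For nephrectomy, *S100a8* was at −0.07 with log2(FPKM + 0.1) and without both libraries *Lcn2* was at 0.35 and *Ngp* at 3.53. For JV101, *Ngp* was at −0.08 and −0.28 with pseudocounts of 1 and 0.1, −0.06 in the additive fit and −2.12 without both libraries, *Lcn2* at 0.06 and 0.04 with these pseudocounts and −0.51 without both libraries, and *Csf3r* at 0.02 with 1. For NX JV101 against sham saline, *Il1b* was at 0.18 and 0.26 and *Lcn2* at 0.04 with 1. Without 1 library, nephrectomy gave −0.48 to 0.65 for *S100a8*, −0.17 to 3.47 for *Ngp*, −0.73 to 0 for *Csf3r*, −0.42 to 0.29 for *Lcn2* and −1.07 to 0.18 for *Il1b*. JV101 gave −0.89 to 0.03 for *S100a8*, −2.06 to 1.21 for *Ngp*, −0.65 to 0.08 for *Csf3r*, −0.44 to 0.2 for *Lcn2* and −0.35 to 0.97 for *Il1b*. NX JV101 against sham saline gave −1.23 to 0.33 for *S100a8*, −0.95 to 3.05 for *Ngp*, −0.81 to 0.2 for *Lcn2* and −1.21 to 1.15 for *Il1b*. With 5 members under 100 counts in every library, depth limits what can be said of them.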
